A study of Homo sapiens with 24 samples.

Results

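Gene expression in SK-N-AS, a human neuroblastoma cell line, was compared between 3 arrays labelled HOXC9 and 3 arrays labelled GFP, taken at 0, 48 and 96 h. These 6 arrays are part of a series of 24 one-colour arrays, in which SK-N-AS and IMR-32, a second neuroblastoma line, each carry HOXC9 or the control transgene GFP (green fluorescent protein) and were sampled at 6 hours, which besides 0, 48 and 96 h are 6, 12 and 24 h. Each line, transgene and hour has 1 array, so the 3 hours stand in for replicates, and nothing in the labels says whether the hours come from separate cultures. The labels do not name the vector, its promoter or an inducing agent, nor do they say whether the transgenic cells were pools or clones, or whether 0 h precedes transgene expression. Levels are log2 of the deposited fluorescence intensity, differences are the level under the HOXC9 label minus that under the GFP label, and a difference of 1 is 2-fold.

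The 3 hours were chosen by how the arrays labelled HOXC9 correlate. Over 44708 features, the arrays labelled HOXC9 at 0, 48 and 96 h correlated with each other at 0.989 to 0.993, and with those at 6, 12 and 24 h at 0.979 to 0.984. Those at 6, 12 and 24 h correlated with each other at 0.995 to 0.997, so they form a group of their own. The GFP arrays at 0, 48 and 96 h correlated at 0.983 to 0.993 with each other and at 0.970 to 0.977 with the arrays labelled HOXC9 at those hours. Because the hours were kept for the agreement of the arrays labelled HOXC9, the spread within that label is smaller by choice. The p-values below may therefore be too small. The GFP arrays were not chosen by their own agreement, and those of 48 and 96 h correlated least, at 0.983. The GFP array of 96 h stood somewhat apart, at 0.983 to 0.990 with the other 5 SK-N-AS GFP arrays, whose other pairs lay between 0.987 and 0.993. Where a count moved by more than 1.5 times without that array, the counts without it are given.

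HOXC9 is a homeobox transcription factor of the HOXC cluster. HOX proteins give cells their position along the body axis, and in neuroblastoma, a childhood tumour of the sympathetic nerve lineage, raised HOXC9 is known to slow growth and to favour differentiation. Neuroblastoma cells are known in a noradrenergic state, with the enzymes that make noradrenaline, and in a mesenchymal state, with genes of matrix, motility and inflammation.

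The HOXC9 probe did not follow the label in SK-N-AS. HOXC9 stood at 11.90, 11.74 and 11.63 in the arrays labelled HOXC9 at 0, 48 and 96 h and at 12.44, 12.31 and 12.09 in the GFP arrays. Every array labelled HOXC9 was below every GFP array, with a difference of -0.52 ± 0.14 (SE; adjusted p = 0.0538), which did not pass the threshold of 0.05. Without the 96 h GFP array the HOXC9 difference was -0.62 (adjusted p = 0.0230). In IMR-32 at the same hours the HOXC9 probe was 3.98 higher under the HOXC9 label. Whether the transgene contains the sequence that this probe reads is not stated. Since the probe goes against the label, each result below is given for the arrays labelled HOXC9, and which culture carried which transgene cannot be told from it.

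The line was checked against markers. PHOX2A, a regulator of the noradrenergic lineage, was at 13.45 ± 0.46 (SD, n = 3) under the HOXC9 label and 13.03 ± 0.27 under the GFP label, and HAND2, another, at 14.48 ± 0.11 and 14.73 ± 0.12. MYCN, which IMR-32 carries in many copies, was at 8.91 and 8.75 in SK-N-AS against 14.83 and 15.26 for the same probe in IMR-32. VIM, an intermediate filament of mesenchymal cells, stood at 17.11 and 17.29. None of PHOX2A, HAND2, MYCN, VIM, FN1, YAP1, FOSL1, GATA3, ISL1 and TH passed the test between labels. Of the further noradrenergic and mesenchymal markers, DBH was called lower, at -4.00. PRRX1, CD44 and NOTCH2 were called higher, by 2.69, 4.50 and 1.73.

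Of 17199 genes tested, 1561 (9.08%) were called higher and 1569 (9.12%) lower under the HOXC9 label at an adjusted p under 0.05, 18.2% in all. Of these, 966 higher genes (5.62%) and 781 lower genes (4.54%) differed at least 2-fold. The 3 values of each label did not overlap for 7008 genes, 40.7% of those tested, 3336 higher (19.4%) and 3672 lower (21.4%). The median difference over all genes was -0.01. Leaving out 1 array of the 6 moved the counts to between 735 and 2500 genes higher and 645 and 2299 lower, the largest without the 96 h GFP array and the smallest without the 48 h array labelled HOXC9. Called genes were often dim: the median level over tested genes was 8.80, and 1004 called genes lay above it in both labels, 348 in one label and 1778 in neither.

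The label differences were in place at 0 h. All 3130 called genes had the same sign at 0, 48 and 96 h. Their median absolute difference was 1.10 at 0 h, 1.09 at 48 h and 1.05 at 96 h. The calls used the 0 h arrays too, so a like sign and size at 0 h were favoured by the choice of genes. The correlation over all genes, given below, does not depend on the calls. Of the 1747 called genes with at least a 2-fold difference, 1535 (87.9%) were at least 2-fold apart in the same direction at 0 h alone, an array pair that is also part of the call. Over all genes the 0 h difference and the mean of the 48 and 96 h differences, which share no array, correlated at 0.760, and at 0.808 over the 8297 genes above the median level in both labels. As a test of change after 0 h, the difference at 48 and 96 h was set against that at 0 h: 0 genes were called by limma and 787 (4.58%) had an unadjusted p under 0.05. That fit has 1 array a label at 0 h and 2 residual degrees of freedom, and in simulated data it recovered 0% of 4-fold changes. The smallest p belonged to IL13RA2, a decoy receptor for interleukin 13, which read 11.28 against 4.28 at 0 h and differed by 5.22 at 48 h and 5.25 at 96 h (adjusted p = 0.721). Among 8599 genes above the median level, 13 rose and 6 fell at least 2-fold from 0 h to the mean of 48 and 96 h under the HOXC9 label, and 35 and 16 did so under the GFP label, as a description without a test.

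**Figure D1:**
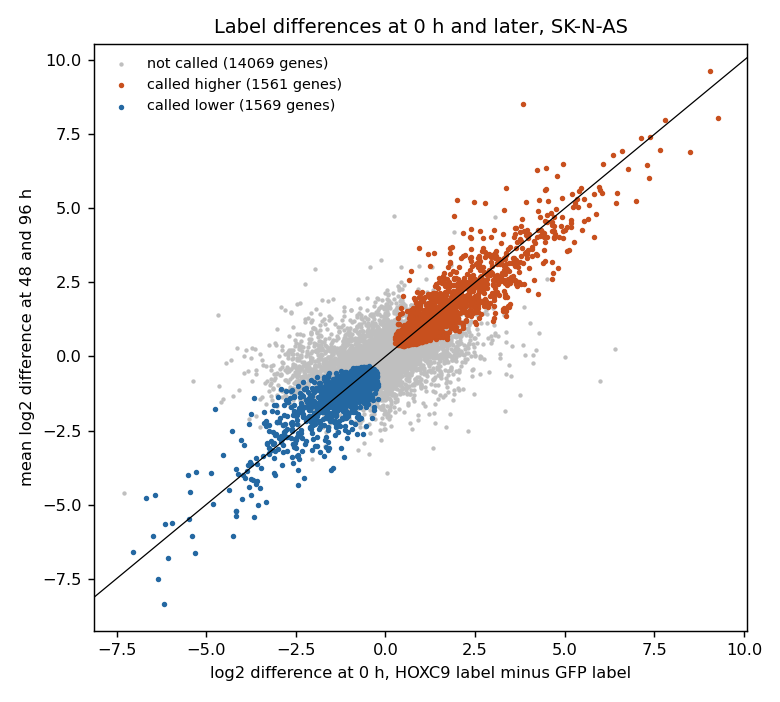
Label difference at 0 h (x axis, log2) against the mean difference at 48 and 96 h (y axis, log2) for each of 17199 genes, with the line of equal values. The 1561 genes called higher and the 1569 called lower lie along the line, on the same side of 0 on both axes; calls used all 3 hours.

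The largest rises among genes that were bright in both labels ran from 2.18 to 5.80. MMP1, the interstitial collagenase, read 14.59, 15.50 and 16.49 in the arrays labelled HOXC9 at 0, 48 and 96 h and 8.64, 10.16 and 10.38 in the GFP arrays. The labels were far apart at each hour, by 5.80 ± 0.65 (SE; adjusted p = 0.00408), and both labels were lowest at 0 h. S100A4, a calcium-binding protein of motile cells, read 14.78, 14.73 and 15.13 against 10.41, 10.34 and 11.09, a difference of 4.27 ± 0.24 (adjusted p = 0.000506). SLC12A7, a potassium-chloride cotransporter, read 15.69, 15.58 and 15.71 against 11.00, 11.03 and 12.18, a difference of 4.25. LY6K, a GPI-anchored surface protein, was higher by 4.06. ITGA11, a collagen-binding integrin chain, and FAP, the fibroblast activation protease, were higher by 3.13 and 3.10. EEF1A2, a translation elongation factor of nerve and muscle, rose by 2.82, and TWIST2, a helix-loop-helix factor of mesenchymal cells, by 2.46. ISG20, an interferon-induced exonuclease, IFI27L2, CNIH3, which escorts glutamate receptors, and HSPA12A, a distant relative of the HSP70 chaperones, were higher by 2.54, 2.50, 2.36 and 2.18. For MMP1, S100A4, SLC12A7, ITGA11, FAP, EEF1A2, ISG20, IFI27L2 and TWIST2 the GFP array closest to the HOXC9 label was that of 96 h.

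The largest falls among such genes ran from -2.19 to -3.67. IGFBP2, a binding protein for insulin-like growth factors and one of the brightest of these probes, read 13.80, 13.68 and 13.90 under the HOXC9 label and 17.05, 16.90 and 17.21 under the GFP label. Its 6 values fell into tight groups with a difference of -3.26 ± 0.13 (adjusted p = 0.000163). RGS16, which shuts off G-protein signals, read 9.73, 9.52 and 9.38 against 13.21, 12.55 and 13.87, a difference of -3.67 ± 0.34 (adjusted p = 0.00223). CILP, a cartilage matrix protein, was lower by the same amount, at -3.67, and ACKR3, a scavenging chemokine receptor, by -3.17. DPYSL5, a collapsin response mediator of growing axons, ENC1, an actin-binding protein of neural cells, and SLIT2, a repellent axon guidance ligand, had differences of -2.94, -2.64 and -2.51. The transcription factors HOXB3, TCF15 and GBX2 stood at -2.54, -2.54 and -2.19, the gluconeogenic enzyme FBP1 at -2.54 and the membrane protein POPDC2 at -2.19. The other probes of HOXB3 read -0.50 and -2.41, the first of them dim.

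**Figure D2:**
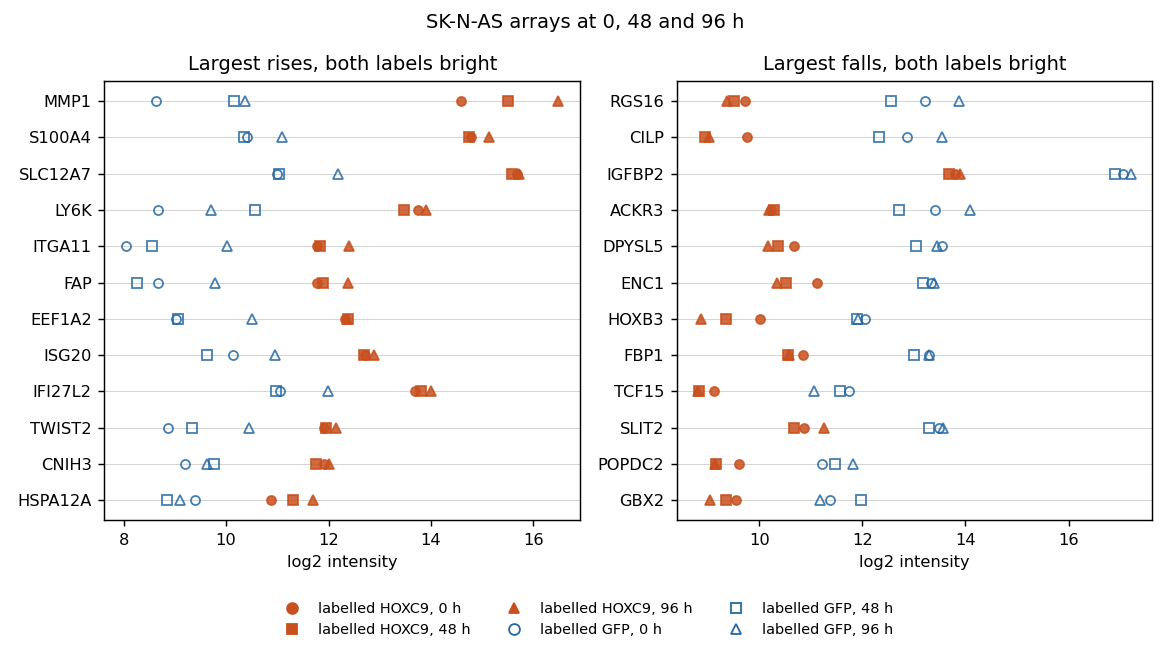
Log2 intensity (x axis) of the 12 genes with the largest rises and the 12 with the largest falls among called genes above the median level in both labels, 1 symbol per array. For MMP1 the 3 arrays labelled HOXC9 lie between 14.59 and 16.49 and the GFP arrays between 8.64 and 10.38. The 24 genes were picked from called genes whose labels do not overlap, so that separation was set by the choice.

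Other called genes were above the median level in one label and below it in the other. Where the dim level lay near the lowest log2 intensity of the data, 0.41, as for CLEC2B and MEF2C, the size of the difference depends on that floor. CLEC2B, a C-type lectin, read 11.21, 11.42 and 11.50 under the HOXC9 label and 2.17, 0.96 and 2.66 under the GFP label. MEF2C, a transcription factor of muscle and neurons, read 10.10, 10.23 and 10.27 against 0.83, 2.62 and 1.77. CD36, a scavenger receptor for fatty acids, read 12.46, 12.47 and 12.54 against 4.66, 5.39 and 3.66. These 3 genes were thus bright under the HOXC9 label and dim under the GFP label, as were FST, the activin antagonist follistatin, GABARAPL1, an autophagosome protein, and MMP3, stromelysin, with differences of 7.42, 7.40 and 7.29. In the other direction DLK1, a non-canonical Notch ligand of chromaffin and progenitor cells, read 6.91, 6.44 and 6.02 against 13.27, 13.22 and 14.23. TIMP3, a matrix-bound inhibitor of metalloproteases, read 5.29, 4.83 and 4.29 against 11.34, 10.99 and 11.74. The differences were -7.12 for DLK1 and -6.55 for TIMP3, and -6.19 for ID4, an inhibitor of helix-loop-helix factors. HSD17B12, an enzyme of fatty acid elongation, WFIKKN2, a myostatin antagonist, and NPPC, the C-type natriuretic peptide, stood at -5.83, -5.73 and -5.45. Adjusted p for these 12 genes ran from 9.34e-05 (GABARAPL1) to 0.00564 (WFIKKN2). The other probes of HSD17B12 gave -6.22 and -1.45, and the other probe of WFIKKN2 gave -2.22.

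For 30 gene lists the members called in each direction were counted and set beside the 9.08% higher and 9.12% lower of all genes. In each list up to 4 called members with the smallest p were to be named, and members named beyond these were chosen after their values were seen. Counts are measured members, with no test of the list as a whole. Other fits called other numbers of all 17199 genes, and list counts from them are to be read beside these. They were 2500 higher and 2299 lower without the 96 h GFP array and 2999 and 3103 over all 6 hours. With hour as a block they were 876 and 786, and with the spread from both lines 2314 and 2456.

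**Figure D3:**
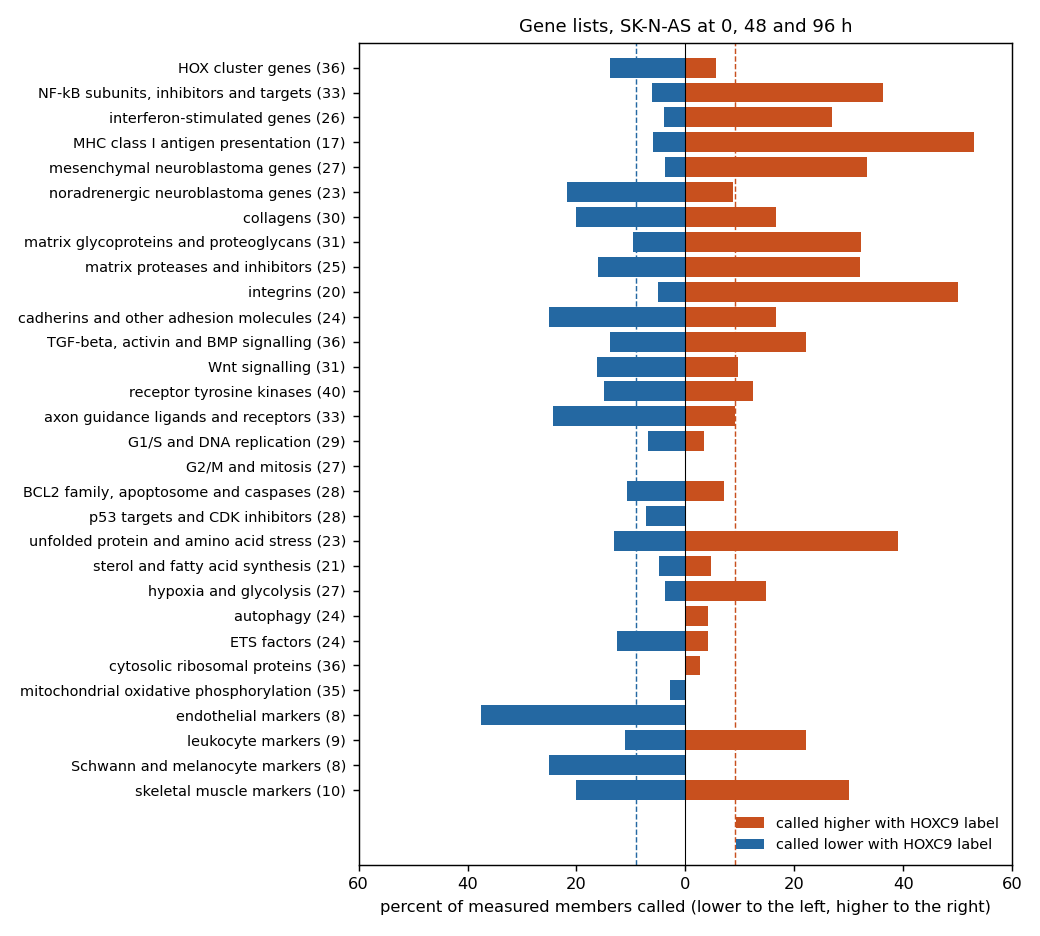
Percent of the measured members of each of 30 gene lists (number in brackets) called higher (to the right) or lower (to the left) under the HOXC9 label; dashed lines mark the share over all genes, 9.08% higher and 9.12% lower. The bars to the right are longest for MHC class I antigen presentation (9 of 17) and integrins (10 of 20).

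Chaperones of the endoplasmic reticulum were higher under the HOXC9 label. The unfolded protein response raises such chaperones when proteins misfold in the endoplasmic reticulum, and a parallel branch raises amino acid synthesis and transport. Of 23 genes of both branches, 9 were higher and 3 lower, with a median difference of 0.39. HSPA5, the chaperone BiP, read 15.12, 15.17 and 15.55 under the HOXC9 label and 13.23, 12.99 and 13.34 under the GFP label, a difference of 2.09 ± 0.17 (SE; adjusted p = 0.00146). DNAJC3, an HSP40 cochaperone, differed by 1.93 and SDF2L1, another chaperone component, by 1.10. Of the further members, PDIA4, a disulfide isomerase, differed by 1.79, HERPUD1, of the degradation complex, by 1.50, XBP1, the transcription factor of the response, by 0.84 and HSP90B1, the chaperone GRP94, by 0.62. All 3 arrays labelled HOXC9 were above all 3 GFP arrays in these 7 genes. The amino acid branch did not go one way: SLC7A11, the cystine transporter, was higher by 1.89 and PSAT1, of serine synthesis, by 1.76, while PHGDH, the first enzyme of serine synthesis, stood at -1.96 and the stress factor ATF3 at -1.24. VLDLR, a dim lipoprotein receptor gene, stood at -2.11. ATF4, the regulator of that branch, differed by -0.06 (adjusted p = 0.787) and DDIT3, the factor CHOP, by 1.41 (adjusted p = 0.122), so neither passed. At 6, 12 and 24 h, in arrays that share none with these, HSPA5 differed by 1.22, PDIA4 by 1.34 and DNAJC3 by 1.99.

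The promoters of these genes are shown because chaperone genes are known to carry the ER stress response element, searched on both strands as CCAAT and CCACG with 9 bases between them, in the 250 bases before the start. It was found in 3 of the 8 promoters on hand for the 9 higher genes (37.5%), in 0 of 12 of the other members and in 17 of 13566 promoters of all genes (0.125%), and this motif was added after values were seen. The stretches below come from RefSeq promoters of GRCh38.p14, 5′ to 3′ on the gene's strand, with motif matches in capitals. HSPA5 lies on the minus strand at chr9:125241376-125241424, HSP90B1 on the plus strand at chr12:103930201-103930354 and XBP1 on the minus strand at chr22:28800588-28800636.
HSPA5: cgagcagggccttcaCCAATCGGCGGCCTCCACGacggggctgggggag
HSP90B1: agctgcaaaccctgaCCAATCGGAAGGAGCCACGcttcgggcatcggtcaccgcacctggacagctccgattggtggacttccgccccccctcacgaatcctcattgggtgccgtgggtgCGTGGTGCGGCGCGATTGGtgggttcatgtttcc
XBP1: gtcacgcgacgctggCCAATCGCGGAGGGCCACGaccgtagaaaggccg
HSP90B1 holds the element in both orientations. A match is a description of the letters, not of a bound site.

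Genes of class I antigen presentation, which cut proteins into peptides, carry the peptides into the endoplasmic reticulum and display them on HLA molecules, were higher under the HOXC9 label for 9 of 17 members and lower for 1, with a median of 0.84. PSMB8, an immunoproteasome subunit, read 9.38, 9.31 and 9.50 under the HOXC9 label and 4.21, 3.99 and 5.62 under the GFP label, a difference of 4.79 ± 0.43 (adjusted p = 0.00213). PSMB9, another such subunit, read 9.74, 9.85 and 10.16 against 7.28, 7.29 and 8.12, a difference of 2.36 ± 0.27. The chaperones CALR and PDIA3, which load peptide, and TAP1, a chain of the peptide transporter, were higher by 0.98, 0.84 and 2.80. HLA-C, HLA-B and HLA-G were higher by 1.03, 1.18 and 1.04, but these genes are close copies of one another and a probe may read more than one. TAP2, the partner chain, was dim and stood at -0.98, and its other probe gave 0.26. B2M, the light chain of class I molecules, differed by 0.43 (adjusted p = 0.0929) and did not pass. Without the 96 h GFP array, which lay nearest the HOXC9 label for PSMB8, PSMB9 and TAP1, 13 members were higher and 1 lower. At 6, 12 and 24 h PSMB8 differed by 4.32, PSMB9 by 2.41 and TAP1 by 2.04, but HLA-B by -0.01. In the limma fit over all 6 hours CALR differed by 0.45 and was not called (adjusted p = 0.166).

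Interferon-stimulated genes, which interferon signalling raises against viruses, were higher for 7 of 26 members and lower for 1, with a median of 0.65. IFIT3, which binds foreign RNA, read 7.08, 6.98 and 6.91 under the HOXC9 label and 5.20, 5.37 and 5.29 under the GFP label, a difference of 1.71 ± 0.11 (adjusted p = 0.000685). OAS1, an RNA sensor, MX1, an antiviral GTPase, and ISG20 were higher by 3.13, 1.90 and 2.54, with IFIT3 and OAS1 dim throughout. In the limma fit of the mean of all probes MX1 was not called (1.71, adjusted p = 0.0993). The lower member was OAS2, at -1.16, also dim, whose other probe read 0.32. STAT2 and IRF9, the signal carriers, differed by 0.28 (adjusted p = 0.323) and 0.52 (adjusted p = 0.101). Without the 96 h GFP array 15 members were higher and 1 lower, in a fit that called 2500 of all 17199 genes higher and 2299 lower.

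NF-kB is a family of dimeric transcription factors held by inhibitors until a signal frees them, with cytokines, adhesion molecules and survival genes among their targets. Of 33 subunits, inhibitors and targets, 12 were higher and 2 lower, with a median of 0.48. Among targets, BIRC3, an inhibitor of apoptosis, read 8.57, 8.91 and 9.63 under the HOXC9 label and 3.78, 3.37 and 3.03 under the GFP label, a difference of 5.65 ± 0.33 (adjusted p = 0.000506). ICAM1, an adhesion molecule dim in both labels, read 7.66, 7.65 and 7.92 against 5.06, 5.13 and 4.16, a difference of 2.96 ± 0.28. VCAM1, a second adhesion molecule, went the other way, at -2.48, and so did the inhibitor NFKBIE, at -0.49. TNFAIP2, a target induced by tumour necrosis factor, was higher by 1.29. Of the subunits, RELB and NFKB2 of the non-canonical branch were higher by 1.04 and 1.61, and NFKB1 differed by 0.003 (adjusted p = 0.995). IL1B and IL1A, cytokines, were higher by 2.82 and 3.69, and their differences were smallest at 96 h, 1.60 and 2.51, where the GFP array was brightest for them. Without the 96 h GFP array 13 members were higher and 1 lower, and with hour as a block 5 were higher and 1 lower. The 250 bases before the start held GGG and CC with 5 bases between them, or GGAANNTCC, on either strand, in 8 of 10 promoters of the higher members (80.0%), in 16 of 17 of the other members and in 8919 of 13566 of all genes (65.7%). The stretches of BIRC3 (plus strand, chr11:102317270-102317373) and ICAM1 (plus strand, chr19:10270870-10270957), the members with the smallest p, are shown with matches in capitals, where overlapping matches run together.
BIRC3: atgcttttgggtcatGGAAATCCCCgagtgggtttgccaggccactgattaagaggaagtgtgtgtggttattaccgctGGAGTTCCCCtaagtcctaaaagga
ICAM1: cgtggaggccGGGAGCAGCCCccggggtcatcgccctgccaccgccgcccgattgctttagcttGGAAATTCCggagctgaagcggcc

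Integrins, the paired receptors that tie cells to matrix, were higher for 10 of 20 members and lower for 1, with a median of 0.81. ITGA4, a chain that binds VCAM1 and fibronectin, read 9.14, 9.17 and 9.31 under the HOXC9 label and 6.97, 6.62 and 6.99 under the GFP label, a difference of 2.35 ± 0.14 (adjusted p = 0.000562). ITGA3, a laminin-binding chain, and ITGA8, which pairs with the common beta chain, were higher by 2.92 and 3.68. ITGB2, the leukocyte beta chain, was dim and stood at -1.41. The abundant chains ITGB1, shared by most of these receptors, and ITGAV differed by 0.07 (adjusted p = 0.709) and -0.003 (adjusted p = 0.994).

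Matrix genes changed in both directions. Of 25 matrix proteases and inhibitors 8 were higher and 4 lower, with a median of 0.44, and MMP14, the membrane-type collagenase activator, was higher by 1.20 beside MMP1 and MMP3. MMP10, the stromelysin encoded beside MMP1 and MMP3, read 7.33, 9.42 and 10.94 under the HOXC9 label and 3.98, 5.59 and 3.41 under the GFP label, so it differed by 3.36 at 0 h and by 7.53 at 96 h. Of 31 matrix glycoproteins and proteoglycans 10 were higher and 3 lower, with a median of 0.52. FBN2, a fibrillin, LAMB3, a laminin chain, and SPARC, a collagen-binding glycoprotein, were higher by 3.26, 2.94 and 1.48, and FBLN2, a fibulin, stood at -4.00. With the 96 h GFP array left out 16 of these were higher and 3 lower. Of 30 collagens 5 were higher and 6 lower, with a median of 0.27. COL12A1, COL4A6 and COL6A1 were higher by 2.87, 2.49 and 1.54, and COL5A2, a fibrillar collagen chain, read 8.44, 8.59 and 9.28 against 12.18, 12.14 and 13.01, a difference of -3.68. Leaving out the 96 h GFP array gave 10 collagens higher and 7 lower. Of 24 cadherins and other adhesion molecules 4 were higher and 6 lower, with a median of 0.06: CDH6 and L1CAM were higher by 4.19 and 1.91, and CDH3 and NCAM1, the neural cell adhesion molecule, stood at -1.33 and -1.50. Without the 96 h GFP array 7 of these were higher and 5 lower, and with hour as a block 1 was higher and 3 lower. In the limma fit of the mean of all probes NCAM1 was not called (-0.71, adjusted p = 0.105). In that over all 6 hours CDH3 was not called (-0.64, adjusted p = 0.191).

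More mesenchymal genes were higher than lower under the HOXC9 label, and noradrenergic genes were called in both directions. Of 27 mesenchymal genes 9 were higher and 1 lower, with a median of 0.78. NOTCH2, a receptor of that state, read 7.56, 7.44 and 7.42 against 5.67, 5.86 and 5.70, a difference of 1.73 ± 0.11 (adjusted p = 0.000684). LMNA, a nuclear lamin, was higher by 1.50, PRRX1, a homeobox factor of that state, by 2.69 and CD44, the hyaluronan receptor, by 4.50. NOTCH2 and PRRX1 were dim in both labels, and the 4 other probes of CD44, near the lowest intensities, read 0.06 to 1.49. The lower member was TWIST1, a helix-loop-helix factor, at -0.98, while its relative TWIST2 was among the largest rises. Of 23 noradrenergic genes 2 were higher and 5 lower, with a median of -0.25, and without the 96 h GFP array 4 were higher and 6 lower. DBH, which makes noradrenaline, read 8.50, 7.46 and 6.64 under the HOXC9 label and 12.24, 12.03 and 10.34 under the GFP label, a difference of -4.00 ± 0.68 (adjusted p = 0.0139), and it was lowest at 96 h in both labels. SLC6A2, the noradrenaline transporter, and SCG3, a granule protein, stood at -2.82 and -2.38. With hour as a block 1 noradrenergic gene was higher and 3 lower. In the limma fit without the 48 h array labelled HOXC9, DBH, SLC6A2 and SCG3 were not called (adjusted p = 0.0561, 0.0614 and 0.0634). NPY, a sympathetic neuropeptide, went against them, with 9.90, 9.70 and 9.71 against 6.01, 6.54 and 5.87, a difference of 3.63 ± 0.20, as did the receptor RET at 1.27. TH, the first enzyme of noradrenaline synthesis, was dim, at 4.88 and 3.43, and differed by 1.45 (adjusted p = 0.0834).

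**Figure D4:**
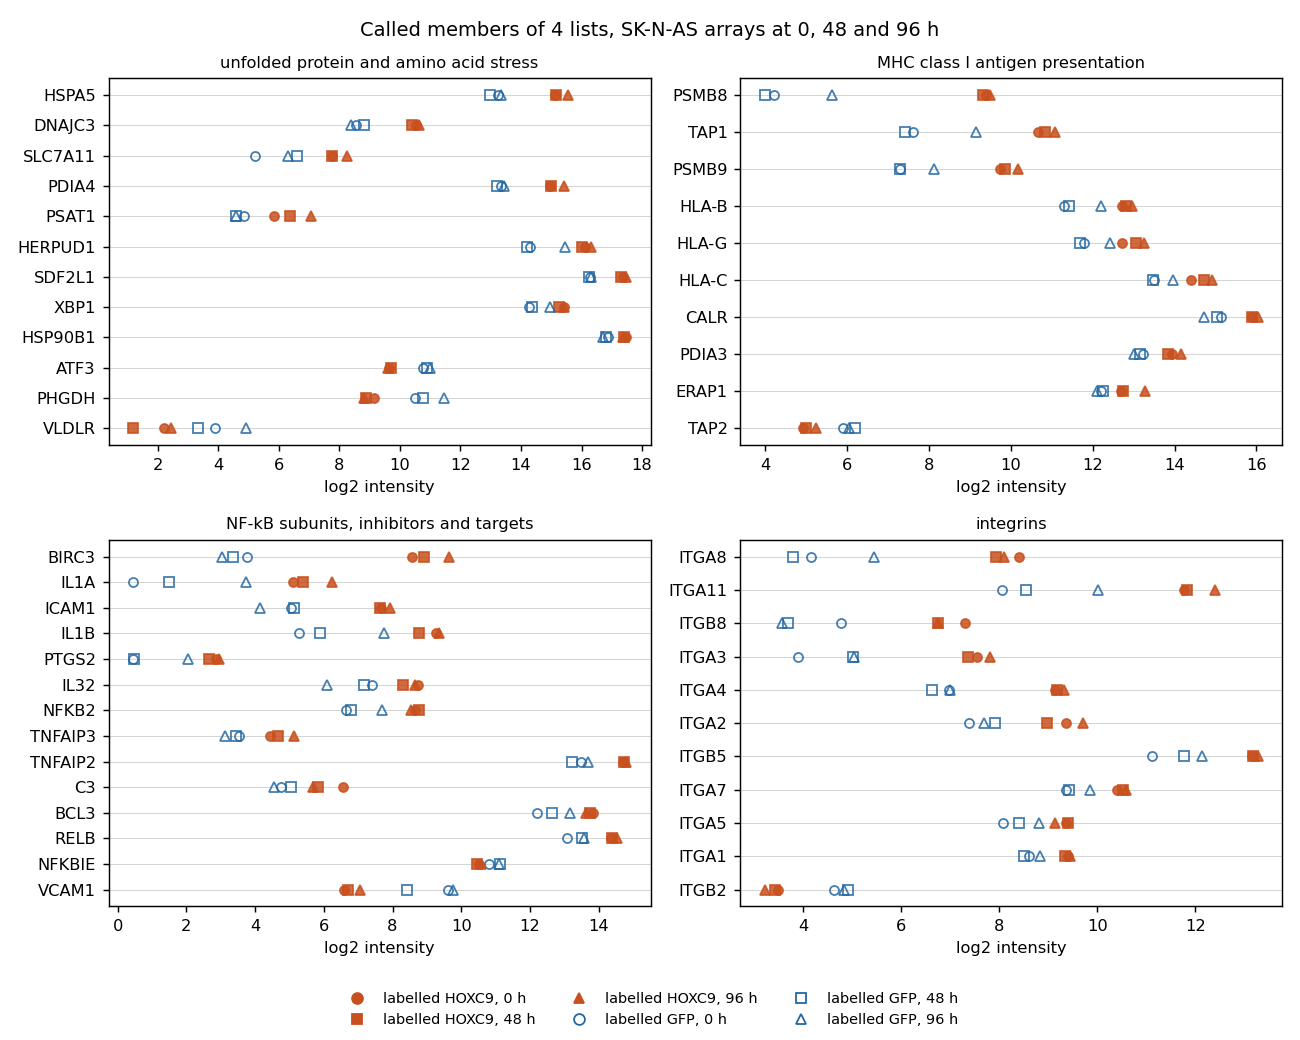
Log2 intensity (x axis) of the called members of 4 lists, 1 symbol per array. For HSPA5 the arrays labelled HOXC9 lie at 15.12 to 15.55 and the GFP arrays at 12.99 to 13.34; members at the foot of each panel, such as VCAM1, TAP2 and ITGB2, lie in the other order.

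HOX cluster genes other than HOXC9 were called in both directions, 2 higher and 5 lower of 36, with a median of -0.01. Their called share was 19.4%, near the 18.2% of all genes. HOXD10 and HOXD11, neighbours in the HOXD cluster, were higher by 2.05 and 1.95, and HOXD10 read 9.52, 9.77 and 9.93 against 7.40, 7.65 and 8.02. HOXB3 (-2.54) and the dim HOXB5 (-1.27) were lower. In this list 5 genes averaged above the median level.

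Signalling lists were also mixed. Of 36 genes of TGF-beta, activin and BMP signalling 8 were higher and 5 lower, with a median of -0.07. FST was higher by 7.42 and GREM1, which binds BMPs, by 3.34, and BMP7, a ligand, and ID4, a BMP target, stood at -4.37 and -6.19. GREM1 was dim, and with 16 units added to each intensity its difference was 0.95 (adjusted p = 0.0603). Of the other antagonists, NOG and CHRDL1 differed by -0.53 (adjusted p = 0.713) and -0.07 (adjusted p = 0.810). Of 31 Wnt genes 3 were higher and 5 lower, with a median of 0.02, without the 96 h GFP array 6 were higher and 7 lower, and over all 6 hours 6 and 13. The feedback gene AXIN2 stood at -1.35, the antagonist DKK2 at -1.47, and SFRP4 and FZD8, both dim, were higher by 2.61 and 1.82. Of 40 receptor tyrosine kinases 5 were higher and 6 lower, with a median of 0.09: ERBB4, ROR2 and MERTK stood at -3.07, -2.29 and -1.18, and the dim EPHA4 was higher by 1.55. Leaving out the 96 h GFP array gave 10 receptors higher and 9 lower. With the mean of all probes EPHA4 differed by 0.56 and was not called by limma (adjusted p = 0.136). Of 33 axon guidance genes 3 were higher and 8 lower, with a median of -0.14. SLIT2, EFNB1, an ephrin ligand, and SEMA6A and SEMA3E, semaphorins, stood at -2.51, -1.09, -1.15 and -2.17. There were 5 axon guidance genes higher and 10 lower without the 96 h GFP array.

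In the cell cycle lists few genes were called at 0, 48 and 96 h, and more over all 6 hours. The fit over all 6 hours also called more of all 17199 genes, 2999 higher and 3103 lower. The fit without the 96 h GFP array did so too, with 2500 and 2299. For G1/S and DNA replication, 1 of 29 genes was higher and 2 lower, with a median of -0.22: CDC6, a replication licensing factor, was higher by 0.44, and CDK6 and PCNA stood at -0.74 and -0.54. Over all 6 hours 2 of these were higher and 17 lower, and 5 were lower without the 96 h GFP array. For G2/M and mitosis, 0 of 27 genes were called by limma, 4 had an unadjusted p under 0.05, each lower, and the median was -0.21. With the spread estimated from both lines 4 of these were called lower, and over all 6 hours 9 were. Of 28 p53 targets and CDK inhibitors 2 were lower, with a median of -0.15: GADD45A, a growth arrest gene, stood at -0.60 and PHLDA3 at -1.14. Over all 6 hours 2 of these were higher and 7 lower, and 4 and 5 without the 96 h GFP array. Of 36 cytosolic ribosomal proteins 1 was higher, RPL8, by 0.42, and of 35 genes of oxidative phosphorylation 1 was lower, NDUFC1, at -0.79, with medians of -0.04 and -0.06, and without the 96 h GFP array 2 genes of oxidative phosphorylation were higher and 1 lower. Of 21 genes of sterol and fatty acid synthesis MVD was higher by 0.56 and SQLE stood at -0.52, with a median of 0.09, and without the 96 h GFP array 4 were higher and 1 lower. Of 27 genes of hypoxia and glycolysis 4 were higher and 1 lower (18.5%, against 18.2% of all genes), with a median of 0.11. NDRG1, EGLN3, an oxygen-sensing hydroxylase, and CA9 were higher by 2.43, 1.73 and 2.11, the further probe of NDRG1 read -0.76, and without the 96 h GFP array 8 were higher and 3 lower. Of 24 autophagy genes GABARAPL1 was called, at 7.40, and without that array 6 were, with a median of 0.18 over all 3 hours. Of 24 ETS factors 1 was higher and 3 lower (16.7%, against 18.2% of all genes), with a median of -0.01. FLI1, a factor of blood and endothelium, stood at -7.63 with a level of 1.10 under the HOXC9 label and 8.73 under the GFP label. ELF2 stood at -1.11 and ELF4 was higher by 0.98. Calls of CDC6, CDK6, PCNA, GADD45A, PHLDA3, RPL8, NDUFC1, MVD, SQLE, CA9 and ELF4 depended on the fit. Each was lost without the 48 h array labelled HOXC9, and with hour as a block. Those of CDC6, PCNA and RPL8 were lost with each array left out in turn except the 96 h GFP array.

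Of 28 apoptosis genes 2 were higher and 3 lower (17.9%, against 18.2% of all genes), with a median of 0.04. Without the 96 h GFP array 5 were higher and 4 lower. BAX and CASP9, a pore-forming effector and the initiator caspase of the mitochondrial pathway, differed by 0.01 (adjusted p = 0.981) and 0.04 (adjusted p = 0.880). BAK1, the other effector, stood at -0.76, CASP6, an executioner caspase, was higher by 0.96 and BCL2L10, a dim family member, by 1.60. BAK1 lies in the chromosome 6 stretch described below. It lost its call with each array left out in turn except the 96 h GFP array. CASP6 and BCL2L10 also lost theirs without some arrays, among them the 48 h array labelled HOXC9. HRK, a BH3-only protein, read 6.71, 6.17 and 6.58 against 11.08, 10.70 and 11.04, a difference of -4.45, but its other probe read 8.41 and 8.38, a difference of 0.03.

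Markers of other cell types were checked for the whole of each list. Of 8 endothelial markers 3 were lower, VWF, KDR and CDH5, and none averaged above the median level in either label, with a summed intensity of 180 to 414 units under the HOXC9 label and 433 to 457 under the GFP label. These calls depended on the probe: with the most variable probe VWF stood at 0.76 (adjusted p = 0.211) and KDR at -0.15 (adjusted p = 0.873). Leaving out 1 array ended the call of VWF in 5 of 6 fits, of CDH5 in 5 and of KDR in 3. Of 9 leukocyte markers CD68 and CSF1R were higher by 1.46 and 1.06 and CD3E stood at -0.69. Summed intensities were 7163 to 7964 and 4098 to 7449, and CD3E was not called without the 96 h GFP array. CD68 and CSF1R lost their calls with each array left out in turn except the 96 h GFP array, and with hour as a block. Of 8 Schwann and melanocyte markers 2 were lower, PMEL at -2.54 and DCT at -0.92, with sums of 7179 to 8369 and 7579 to 11144. Without the 96 h GFP array 4 were lower. With the mean of all probes DCT stood at -0.58 and was not called by limma (adjusted p = 0.173). Of 10 skeletal muscle markers 3 were higher and 2 lower, with sums of 6649 to 7452 against 669 to 971, and without the 96 h GFP array 3 were higher and 1 lower. TNNT1, the slow skeletal troponin T, was the brightest of them and read 12.51, 12.67 and 12.51 against 5.92, 5.51 and 5.80, a difference of 6.82 ± 0.14 (adjusted p = 4.84e-05). MYH8, a perinatal myosin, and DES, the muscle filament desmin, were higher by 5.15 and 2.20, while the muscle regulator MYOG stood at -0.84 and MYOD1 differed by -0.29 (adjusted p = 0.216). The medians of the endothelial, leukocyte, Schwann and muscle lists were -0.91, 0.17, -0.88 and 0.33, and the part of other cells in the results above was not tested.

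The medians of neighbouring genes that lay farthest from 0 were on chromosomes 6 and 8. Genes above the median level were put in the order of the GRCh38.p14 annotation. On chromosome 6 the median difference of 430 genes was -0.26, and 28.8% were called lower, against 6.29% of all 8230 ordered genes. The shift lay in the first 258 of them, from FOXQ1 to PHF3, where the median was -0.51, 206 genes were below 0, 115 were called lower (44.6%) and 12 higher. It measured -0.48 at 0 h, -0.47 at 48 h and -0.54 at 96 h, and -0.61 at 6, 12 and 24 h, against -0.08 in IMR-32. The remaining 172 genes, from LMBRD1 to PDCD2, had a median of 0.02, with 9 called higher and 9 lower. The first 43 genes, from FOXQ1 to CDKAL1, had a median of -0.97, and 30 were called lower. Of the class I presentation list, 10 members lie on chromosome 6 and 6 of them were higher, TAP1 and HLA-C among the 12 higher genes of this stretch. BAK1 and NFKBIE, named above, lie in this stretch too and were called lower, at -0.76 and -0.49. At the end of chromosome 8, 52 genes from LY6K to C8orf33 had a median of 0.57, and 27 were called higher. There the median was 0.63 at 0 h, 0.62 at 48 h and 0.36 at 96 h, 0.30 at 6, 12 and 24 h, and -0.14 in IMR-32. LY6K and RPL8, named above, are on that chromosome. Over 7130 windows of 51 neighbouring genes, the 5th and 95th percentiles of the window median were -0.13 and 0.14. The highest window off chromosome 8 was on chromosome 4, from SMARCA5 to STOX2, with a median of 0.34, 14 genes called higher, 1 lower and a median of 0.38 at 6, 12 and 24 h. Running medians of 31 genes reached -0.56 and 0.55 on chromosome 4 and -0.49 on chromosome 1. Without chromosome 6, 1495 of 16249 genes were called higher and 1354 lower.

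**Figure D5:**
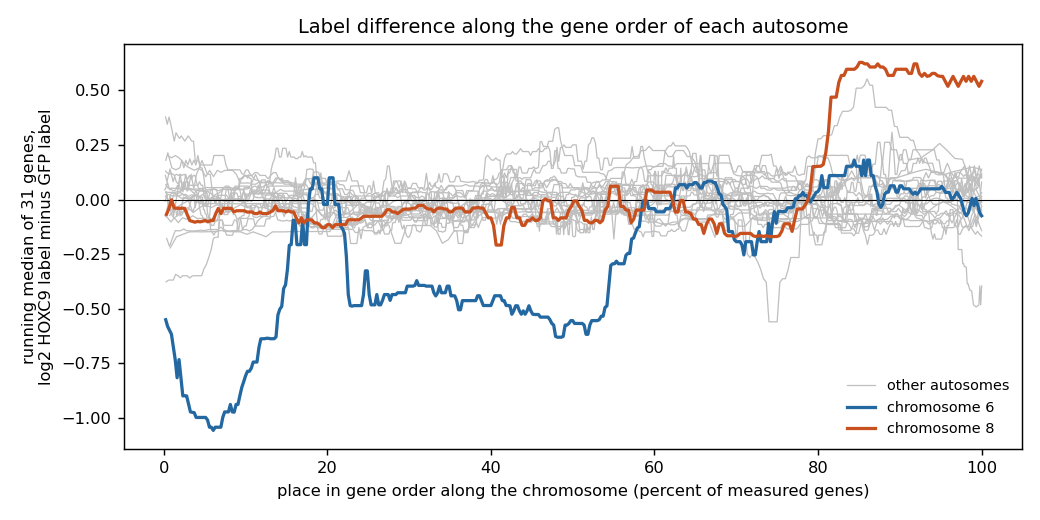
Running median over 31 neighbouring genes of the label difference (y axis, log2) along the gene order of each autosome (x axis, percent of measured genes). Chromosome 6 lies below 0 over its first part, whose median is -0.51, and chromosome 8 lies above 0 at its end, where the last 52 genes have a median of 0.57. Chromosome 4 spans -0.56 to 0.55.

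The arrays of 6, 12 and 24 h, which the choice of hours left out, gave another reading of the same contrast on other arrays. They were left out for their values, so the reading is a description. Of the 3130 called genes 2799 (89.4%) had the same sign there, against 66.3% of all genes. Of the 1747 called genes with a 2-fold difference 1640 (93.9%) had the same sign, 1017 (58.2%) were again 2-fold apart, and 5 were 2-fold apart in the opposite direction. Of the 305 such genes above the median level in both labels 291 (95.4%) kept their sign and 174 were again 2-fold apart. List medians there were 0.74 for integrins, 0.68 for the NF-kB list, 0.59 for interferon-stimulated genes, 0.53 for mesenchymal genes, 0.48 for the unfolded protein list and 0.35 for class I presentation. Some other lists, with medians near 0 in the main comparison, changed sign at 6, 12 and 24 h. Among them were sterol and fatty acid synthesis (0.09 to -0.37), Wnt signalling (0.02 to -0.32) and the TGF-beta list (-0.07 to 0.19). The differences of ISG20 and IFI27L2 were smaller there, at 0.70 and 0.95, and MMP1, S100A4 and DLK1 stood at 5.10, 3.70 and -7.20.

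To ask whether the label difference of SK-N-AS differed from that of IMR-32, both lines were fitted together over the same hours. The difference between lines was called for 4970 of 17199 genes (28.9%), 2445 higher (14.2%) and 2525 lower (14.7%) in SK-N-AS. Of the 1747 SK-N-AS genes with a 2-fold call, 159 (9.10%) were at least 2-fold apart in the same direction in IMR-32, 238 (13.6%) in the opposite direction and 1350 (77.3%) by less than 2-fold, and 1381 (79.0%) were called in the test between lines. SLC12A7 and TWIST2 were also higher under the HOXC9 label of IMR-32, by 3.12 and 2.89, and their difference between lines did not pass (adjusted p = 0.0637 and 0.611). ACKR3 was higher by 4.45 in IMR-32 and lower by 3.17 in SK-N-AS, a called difference between lines (adjusted p = 6.79e-06).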

How the data were processed

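The deposited values are linear fluorescence intensities of one-colour Cy3 arrays. The authors processed them with limma, per the submitters' processing notes, with no version or background correction stated, and the arrays share a common intensity distribution, differing by at most 0.0723% at any rank. The labels' protocols state TRIzol extraction and a minimum RNA integrity. Deposited intensities were converted to log2, without adding an offset. No detection flags or counts were used, so the depth is unknown, dim values cannot be told from background, and the number of arrays limits precision.

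Of 44708 features, 27942 have 1 gene symbol and 16766 none. This gave 17199 genes, each by its probe with the highest mean over 24 arrays. Symbols were updated through RefSeq (GRCh38.p14), which also gave gene order and promoters.

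The main comparison was a limma fit (lmFit and eBayes, two-sided) of the 6 SK-N-AS arrays without an hour block, with Benjamini-Hochberg adjustment over all genes and calls under 0.05. It has 4 residual degrees of freedom. The difference between lines used 12 arrays. The hours do not come from stated separate cultures, so p-values measure the spread between these arrays, which may be technical. In simulated data with 200 changed genes of 17199 the main comparison recovered 31% of 2-fold and 67% of 4-fold changes, the comparison of lines 40% and 80%, and that of late with 0 h 0% and 0%.

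Genes were named by rule: the 12 largest rises and 12 largest falls above the median level in both labels, the 6 and 6 largest near-absent in one label, up to 4 called and 2 uncalled members per list, HOXC9 and markers, and 5 per direction, or the smallest p, in the other tests. The rises, falls and near-absent genes were drawn only from called genes whose labels do not overlap. The members and the 30 lists were chosen with earlier results of these data known. Alternatives covered scaling, offsets, dim genes, probe choice, eBayes settings, arrays left out, an hour block and other estimates of the spread. Software was R 4.3.3, limma 3.58.1, Python 3.11.15, pandas 2.3.3, numpy 2.4.6 and matplotlib 3.10.9.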

Additional observations from a re-analysis of the deposited data

Results flagged for a closer look

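The label difference itself differed between SK-N-AS and IMR-32 for 4970 genes by the test of that difference. The named genes with the largest such differences, SK-N-AS minus IMR-32, follow with the level under the HOXC9 and GFP labels of IMR-32. FST, the activin antagonist, differed by 10.67 (0.90 and 4.15 in IMR-32), CLEC2B, a lectin, by 9.52 (0.88 and 0.95), SAMSN1, an adaptor of blood cells, by 9.45 (0.80 and 3.78) and MEF2C, a transcription factor, by 9.10 (0.56 and 1.21). For CLEC2B and MEF2C both IMR-32 levels are near the lowest log2 intensity of the data, 0.41, as is the HOXC9 level of FST and SAMSN1, so these sizes depend on that floor. GAGE12F, a cancer-testis antigen with near-identical copies, differed by 8.21 (6.19 and 11.87), higher under the HOXC9 label in SK-N-AS and lower in IMR-32. DLK1, the Notch ligand, differed by -9.97 (14.52 and 11.67), VEGFD, a lymphatic growth factor, by -9.89 (13.81 and 7.19) and C18orf2 by -8.87 (7.30 and 2.29). RELN, a guidance protein of migrating neurons, differed by -8.28 (7.59 and 0.93) and NEUROD1, a neuronal helix-loop-helix factor, by -7.87 (11.45 and 4.97). Each gene from DLK1 to NEUROD1 was lower under the HOXC9 label in SK-N-AS and higher in IMR-32. For NEUROD1 the SK-N-AS difference was -1.39 and was not called. The RELN level under the GFP label of IMR-32, 0.93, is also near that floor.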

How the results depend on the processing

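Counts of called genes moved with the arrays and the estimate of spread. Against 1561 genes higher and 1569 lower, genes above the median level alone gave 791 and 715 (of 8599 genes), the fit over all 6 hours 2999 and 3103, 48 and 96 h alone 314 and 240, spread from both lines 2456 lower, spread from all SK-N-AS arrays 2664 and 2791, and leaving out 1 array 735 to 2500 higher and 645 to 2299 lower. With hour as a replicate block 876 were higher and 786 lower. Same-hour arrays did not deviate together (correlations 0.042, -0.068 and 0.078 at 0, 48 and 96 h), so the hours do not pair them. HOXC9, -0.52 and not called, passed the threshold at -0.59 with medians set equal, -0.52 with offsets of 16 or 50 units, above-median genes, a trended eBayes prior or spread from both lines or all SK-N-AS arrays, -0.57 over all 6 hours and -0.62 without the 96 h GFP array. With each other array left out it did not pass, and the range was -0.62 to -0.44. The comparison of lines gave 2575 calls over above-median genes, and the late comparison 0 under each alternative that could be fitted (not without either 0 h array). Setting medians equal moved the median of all genes from -0.01 to -0.08. YAP1 turned to -0.12 with probe means and to -0.37 with the most variable probe, MYCN to -0.062 with probe means and ranged from -0.027 to 0.43 with 1 array left out, TAP2 to 0.26 and VWF to 0.76 with the most variable probe. Of the values of 146 named genes under these alternatives, 2547 kept their direction and call, 261 lost the call, 28 gained it and 7 changed sign. The cause was not tested.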
